A study of Mus musculus with 8 samples.

Results

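Bile acid synthesis and its control by the nuclear receptor FXR were followed in mouse liver through 10 genes. They are *Cyp7a1*, *Cyp7b1*, *Cyp8b1*, *Cyp27a1*, *Akr1d1*, *Baat*, *Slc27a5*, *Slc10a1*, *Nr0b2* and *Nr1h4*, chosen by name for their place in synthesis, conjugation, uptake and feedback. All 10 were found among the 45706 Ensembl identifiers of the count table, and all 10 passed the filter on low counts, as did 15491 genes in all. Poly(A) RNA was sequenced from 8 livers of male mice of a strain spelled C56B6/J in the labels and C57BL/6J in the study's methods. In 4 of them an adeno-associated virus of serotype 2/8 (AAV) carried a short hairpin RNA in a microRNA backbone (mirE/shRNA) against *Srsf10*, which encodes an RNA-binding splicing factor, and these livers are labelled *Srsf10-kd*. The other 4, *Ctrl*, came from mice given the same vector with a control hairpin. In both groups the chicken β-actin promoter, which is active in many cell types, drove GFP together with the hairpin. Both groups were injected into the tail vein at 6 weeks of age, and both received a high fat diet (HFD, 60% of calories from fat) that began 4 weeks later and lasted 12 weeks. No mice on a control diet are included, so the comparison concerns *Srsf10-kd* against *Ctrl* under HFD only.

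Bile acids are made from cholesterol in hepatocytes, by a classical pathway that starts with *Cyp7a1* and an alternative pathway that starts with *Cyp27a1* and continues with *Cyp7b1*. They are then activated and joined to an amino acid, mainly taurine in mice, secreted into bile, taken up again in the gut and returned to the liver. Bile acids bind FXR, the product of *Nr1h4*, which induces *Nr0b2*, and its product SHP represses *Cyp7a1* and *Cyp8b1*; a hormone from the gut, FGF15, acts on the same enzymes through the receptor FGFR4 and its partner β-Klotho.

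A pair of promoters is shown because they belong to the ends of this feedback, the repressor *Nr0b2* and the enzyme *Cyp8b1*. The sequences come from RefSeq on GRCm38.p6, run 5′ to 3′ on the strand of the gene, and hold 250 bases before and 50 bases from the start of the gene. Of the 10 genes, 6 matched an entry of the promoter table (*Akr1d1*, *Cyp27a1*, *Cyp8b1*, *Nr0b2*, *Nr1h4* and *Slc10a1*). Capitals mark CAAAGTCCA, a site of the liver factor HNF4, in *Cyp8b1* (chr9:121916256-121916555, minus strand) and TCAAGG, the core recognised by LRH-1, the product of *Nr5a2*, in *Nr0b2* (chr4:133553126-133553425, plus strand).
Cyp8b1: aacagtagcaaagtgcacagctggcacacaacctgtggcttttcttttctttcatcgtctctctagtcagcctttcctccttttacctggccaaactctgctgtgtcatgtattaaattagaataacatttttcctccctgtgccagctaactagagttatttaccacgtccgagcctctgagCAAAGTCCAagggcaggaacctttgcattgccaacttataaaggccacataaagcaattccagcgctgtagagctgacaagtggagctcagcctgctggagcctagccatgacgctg
Nr0b2: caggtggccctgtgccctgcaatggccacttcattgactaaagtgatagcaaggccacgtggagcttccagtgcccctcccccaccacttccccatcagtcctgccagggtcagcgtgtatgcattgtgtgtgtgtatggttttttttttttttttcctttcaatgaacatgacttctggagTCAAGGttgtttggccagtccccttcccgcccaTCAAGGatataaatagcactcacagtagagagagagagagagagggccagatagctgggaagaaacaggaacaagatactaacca
Both strands were searched for these exact letters, and each of these windows held matches of 1 motif, so no marked match overlapped another. The variant CCAAGG was not searched, and in the printed *Cyp8b1* window it runs over the end of the HNF4 site. The HNF4 site of *Cyp8b1* began at -67 from the start, and among the 32851 promoter windows 0.475% held it, those of *Abcd3*, *Cyp2c70* and *Cyp3a11* in the wider pathway included. In *Nr0b2* the LRH-1 core began at -68 and again at -35, and 14.4% of all windows held at least 1; *Akr1d1* was the other member with a match. The inverted repeat AGGTCANTGACCT, a site bound by FXR with its partner RXR, was found in 0.00913% of all windows and in no member's. A match describes the letters only.

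The count totals of the 8 livers lay between 50456404 and 59697241 reads. Levels are given as CPM, a gene's count scaled by TMM to a common library size, and differences as log2 fold changes of *Srsf10-kd* over *Ctrl*. The test is edgeR's quasi-likelihood test, two-sided, with p-values adjusted after Benjamini-Hochberg over the 15491 genes. *Srsf10*, the targeted gene, was at 31.6, 33.7, 35.3 and 30.9 CPM in *Ctrl* 1 to 4 and at 34.3, 34.0, 41.0 and 36.5 CPM in *Srsf10-kd* 1 to 4. Its level was thus no lower in *Srsf10-kd* than in *Ctrl* (log2 fold change 0.15, standard error (SE) 0.10, adjusted p = 0.378), and the name *Srsf10-kd* stands for the label of these livers throughout. For livers of mice given this hairpin, the study reports less SRSF10 protein by western blot and less *Srsf10* RNA by qPCR. Whether the sequenced livers were among those is not given in the sources used here, and counts per gene do not separate its transcripts. Of the 75-base stretches of *Srsf10*, 7.95% are shared with *Gm5446* and *Gm9134*. On the first principal component of log2 CPM, with 44.8% of the variance, *Srsf10-kd* 3 stood apart at 67.4, *Srsf10-kd* 1, 2 and 4 lay between 1.92 and 11.5, and *Ctrl* lay between -41.8 and -2.91. The hepatocyte gene *Alb* was at 45844 to 83145 CPM, as in the labelled tissue. Whether livers of a group came from separate cages or days is not given, and p-values measure the spread between these livers.

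No difference between the groups passed the test in any of the 10 genes. The edgeR test called 0 of 10 at an adjusted p under 0.05, against 0.0710% of all genes, and 0 of 10 had an unadjusted p under 0.05, against 21.8% of all genes. DESeq2 and limma-voom also called 0 of 10, against 5.75% and 11.7% of all genes. In no member did the groups fail to overlap, which occurred for 14.3% of all genes. The fitted change was above 0 for 4 members and below 0 for 6, with a median of -0.05 against 0.013 for all genes. A p above the threshold does not show that the groups are alike, so each gene is given with the 95% interval of its fold. In whole liver, fewer cells that express a gene and less RNA per cell cannot be told apart.

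**Figure D1:**
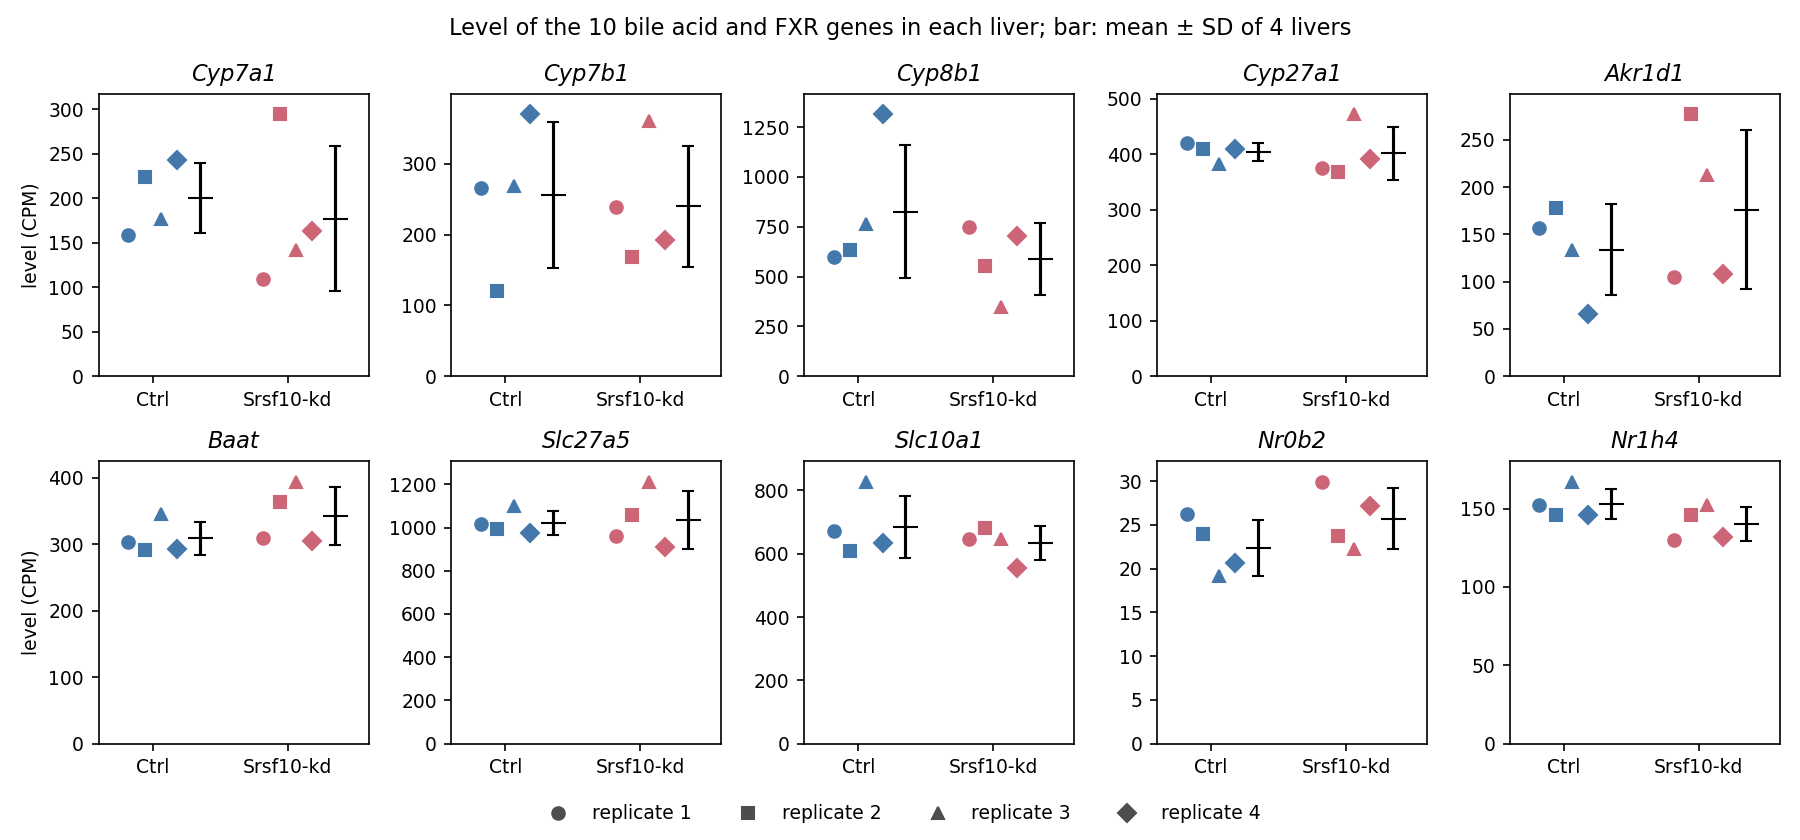
Level of each of the 10 genes in CPM (vertical axes, from 0) in the 4 *Ctrl* (blue) and 4 *Srsf10-kd* (red) livers, with a marker shape for each replicate number and a bar for the mean ± SD of each group. The groups overlap in every panel, and *Cyp7a1*, *Cyp7b1*, *Cyp8b1* and *Akr1d1* are spread widely while *Cyp27a1*, *Baat*, *Slc27a5* and *Nr1h4* are tight.

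*Cyp7a1* encodes the rate-limiting enzyme of the classical pathway (chr4:6265612-6275633, minus strand, 6 exons; positions are from GENCODE M21 on GRCm38). It was at 159, 224, 176 and 243 CPM in *Ctrl* 1 to 4 and at 109, 294, 142 and 163 CPM in *Srsf10-kd* 1 to 4. The lowest and the highest liver of the series both belonged to *Srsf10-kd*, so that group enclosed all *Ctrl* values. The means were 200 ± 39.4 CPM and 177 ± 81.2 CPM (SD, n = 4 livers each). Its log2 fold change was -0.18 (SE 0.28, adjusted p = 0.712), and the 95% interval of the fold ran from 0.573 to 1.36. Single livers moved this value: without *Srsf10-kd* 2 the log2 fold change was -0.54, still not past the threshold (adjusted p = 0.167), and without *Srsf10-kd* 1 it was -0.004.

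*Cyp8b1* (chr9:121914356-121916305, minus strand, a gene of 1 exon) encodes the sterol hydroxylase that directs synthesis to cholic acid, and its promoter carries the HNF4 site shown above. *Ctrl* livers held 599, 631, 762 and 1314 CPM, and *Srsf10-kd* livers held 751, 552, 347 and 703 CPM. *Ctrl* 4 was highest and *Srsf10-kd* 3 lowest, and the 6 livers between them were mixed. In the edgeR fit this was the member with the most negative change, -0.49 (SE 0.30, adjusted p = 0.336; exact permutation test, two-sided, p = 0.314), with an interval of the fold from 0.449 to 1.13. The change was -0.18 without *Ctrl* 4 and -0.30 without *Srsf10-kd* 3, neither past the threshold. With limma-voom it was -0.08, and *Cyp7a1* was then lower at -0.33 (adjusted p = 0.399).

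*Akr1d1* encodes the reductase that saturates the steroid ring in both pathways (chr6:37530173-37568815, plus strand, 9 exons). Its levels were 157, 178, 134 and 65.9 CPM in *Ctrl* and 105, 277, 213 and 108 CPM in *Srsf10-kd*. It had the widest range of the 10 genes, 4.21 times from *Ctrl* 4 to *Srsf10-kd* 2. The fitted change of 0.40 (SE 0.37, adjusted p = 0.517) was the most positive among the members in that fit, with a fold interval from 0.745 to 2.33. It was 0.09 without *Srsf10-kd* 2 and 0.17 without *Ctrl* 4, and limma-voom turned it to -0.11 (adjusted p = 0.854).

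The alternative pathway was represented by a steady and a variable gene. *Cyp27a1*, the mitochondrial sterol hydroxylase that opens it (chr1:74713574-74737892, plus strand, 9 exons), was at 420, 409, 382 and 409 CPM in *Ctrl* and at 376, 369, 472 and 391 CPM in *Srsf10-kd*. The highest liver was only 1.28 times the lowest. With a log2 fold change of -0.01 (SE 0.11, adjusted p = 0.959), a fold outside 0.832 to 1.18 lies beyond its 95% interval. *Cyp7b1*, the oxysterol hydroxylase that follows it (chr3:18071950-18243338, minus strand, 6 exons), was at 266, 121, 269 and 370 CPM in *Ctrl* and at 239, 169, 361 and 193 CPM in *Srsf10-kd*. The *Ctrl* livers alone held both its lowest and its highest value. Its fitted change was -0.09 (SE 0.33, adjusted p = 0.878; fold interval 0.565 to 1.56), and it turned to 0.14 without *Ctrl* 4.

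The conjugation genes were among the most even. *Slc27a5* encodes the synthetase that activates bile acids with coenzyme A (chr7:12988346-12998192, minus strand, 10 exons) and was at 1018, 991, 1101 and 977 CPM in *Ctrl* and 960, 1058, 1211 and 911 CPM in *Srsf10-kd*. *Srsf10-kd* held both extremes, and the fold lay near 1 (1.01, interval 0.836 to 1.23; adjusted p = 0.938). *Baat* encodes the transferase that joins the activated bile acid to its amino acid (chr4:49489422-49506557, minus strand, 4 exons). Its values were 304, 292, 345 and 293 CPM in *Ctrl* against 309, 364, 394 and 305 CPM in *Srsf10-kd*. Although *Srsf10-kd* livers held the top 2 values, 345 CPM in *Ctrl* 3 exceeded the other *Srsf10-kd* livers, and the log2 fold change of 0.15 (SE 0.12) did not pass the test (adjusted p = 0.458; fold interval 0.919 to 1.34).

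*Slc10a1* encodes NTCP, the sodium-dependent carrier that takes bile acids up from the blood (chr12:80953183-80968705, minus strand, 6 exons). It was at 671, 608, 827 and 633 CPM in *Ctrl* and at 648, 682, 647 and 556 CPM in *Srsf10-kd*. *Ctrl* 3 alone stood above the rest, which lay between 556 and 682 CPM. The log2 fold change was -0.11 (SE 0.13, adjusted p = 0.611; fold interval 0.755 to 1.13) and became -0.01 without *Ctrl* 3.

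The receptor and its target did not pass the test either. *Nr1h4*, which encodes FXR (chr10:89454234-89533585, minus strand, 10 exons), was at 152, 146, 167 and 146 CPM in *Ctrl* and at 130, 146, 152 and 132 CPM in *Srsf10-kd*, a range of 1.29 times over the 8 livers. The lowest pair of livers was labelled *Srsf10-kd*, while *Srsf10-kd* 2 and 3 lay within 1 CPM of a *Ctrl* liver. The fold was 0.916 with an interval of 0.782 to 1.07 (adjusted p = 0.458). *Nr0b2*, which encodes SHP (chr4:133553376-133556536, plus strand, 2 exons), was at 26.2, 23.9, 19.1 and 20.6 CPM in *Ctrl* and at 29.9, 23.7, 22.2 and 27.1 CPM in *Srsf10-kd*. *Srsf10-kd* 1 and 4 exceeded all *Ctrl* livers and the other pair did not, with a log2 fold change of 0.20 (SE 0.14, adjusted p = 0.385; exact permutation test, p = 0.229; fold interval 0.93 to 1.42).

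**Figure D2:**
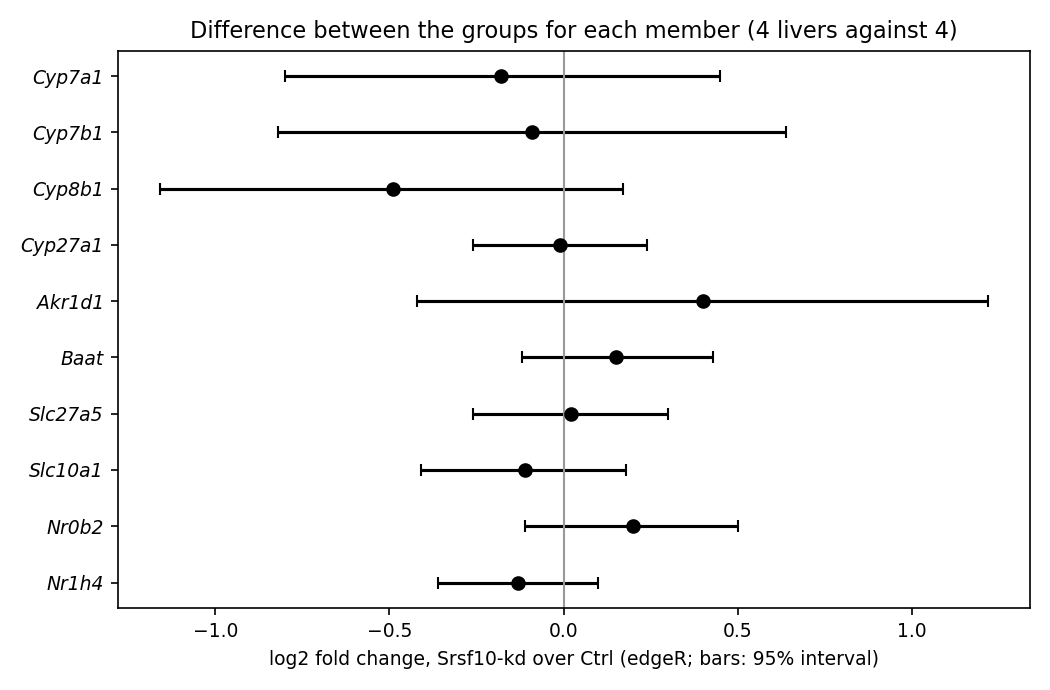
Log2 fold change of *Srsf10-kd* over *Ctrl* (horizontal axis) for each of the 10 genes from the edgeR fit on 4 livers against 4, with bars for the 95% interval. Every interval includes 0, from -0.49 for *Cyp8b1* to 0.40 for *Akr1d1*, and the bars of *Cyp7a1*, *Cyp7b1*, *Cyp8b1* and *Akr1d1* are the longest.

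The members separated by how much they varied between livers of the same group. For *Akr1d1*, *Cyp7b1*, *Cyp8b1* and *Cyp7a1* the SD of log2 CPM within groups was 0.67, 0.59, 0.51 and 0.47. Only 1.78% to 5.89% of the 6114 genes whose mean log2 CPM was 4 or more had a larger SD than these genes. The median of those genes was 0.20. *Nr0b2* lay at it within rounding (0.20, with 49% of those genes larger). The remaining members lay under it: *Slc10a1* at 0.17, *Baat* at 0.15, *Slc27a5* at 0.14, *Cyp27a1* at 0.12 and *Nr1h4* at 0.10. *Nr1h4* was more even than 87.5% of the genes at that level. This order is a description across genes, and no test was made of it. *Nr0b2*, the member with the lowest level and 958 to 1715 counts per liver, had a narrower interval of its fold than any of these 4 genes.

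**Figure D3:**
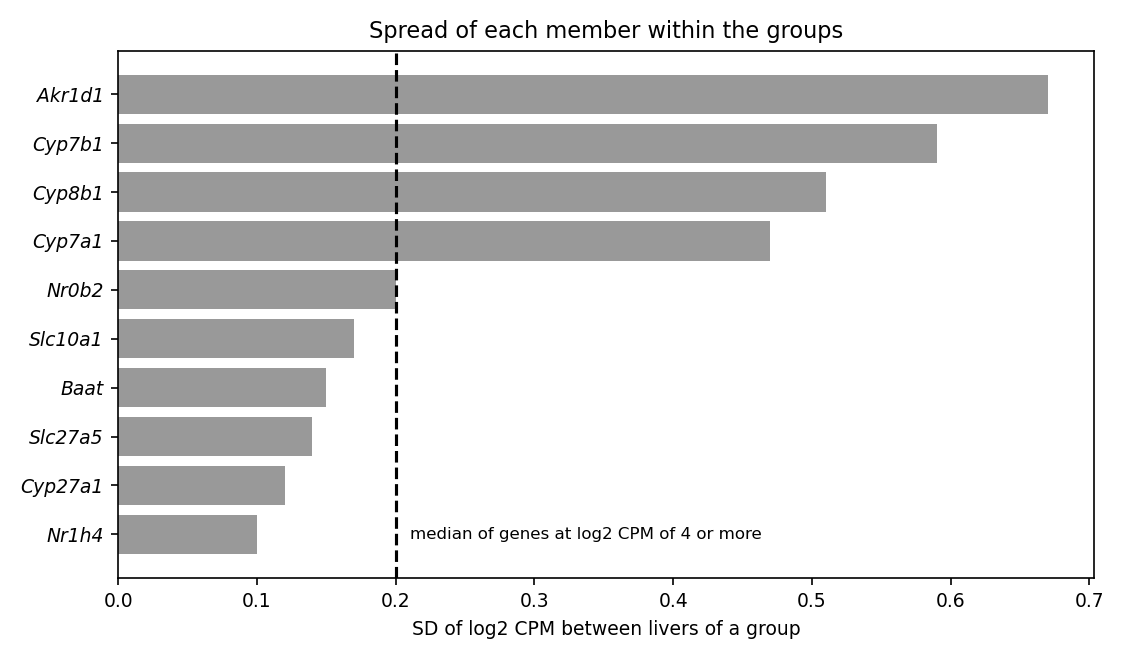
SD of log2 CPM between livers of a group, taken as the root of the mean variance of both groups (horizontal axis, bars from 0), for each of the 10 genes. The dashed line is the median of 0.20 over the 6114 genes whose mean log2 CPM was 4 or more, and 4 members (*Akr1d1*, *Cyp7b1*, *Cyp8b1* and *Cyp7a1*) lie far above it.

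Several extremes of the variable genes fell in the same livers, *Ctrl* 4 and *Srsf10-kd* 2, and no correlation among these genes was computed. In *Ctrl* 4, *Cyp7b1* and *Cyp8b1* were at their highest and *Akr1d1* at its lowest, and *Cyp7a1* was at 243 CPM, second only to *Srsf10-kd* 2. *Cyp8b1* thus held 19.9 reads there for each read of *Akr1d1*, a pair at opposite extremes in that liver. The other *Ctrl* livers held 3.55 to 5.68 and the *Srsf10-kd* livers 1.63 to 7.14. In *Srsf10-kd* 2 the pattern was another, with the highest *Cyp7a1* and *Akr1d1* and the lowest *Cyp27a1*. *Srsf10-kd* 3, the liver that stood apart over all genes, had the highest *Cyp27a1*, *Baat* and *Slc27a5* and the lowest *Cyp8b1*. Reads of *Cyp8b1* per read of *Cyp7b1* were 0.962 there and between 2.26 and 5.24 in the other 7 livers. Reads of *Cyp7a1* per read of *Cyp27a1*, the entries to the classical and alternative pathways, ran from 0.378 to 0.593 in *Ctrl* and from 0.291 to 0.798 in *Srsf10-kd*, which again enclosed *Ctrl*. *Ctrl* 1 was neither highest nor lowest for any member.

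Per kilobase of the longest transcript, the mean level over the 8 livers was highest for *Slc27a5* at 450 CPM per kb, followed by *Slc10a1* at 377, *Cyp8b1* at 363, *Cyp27a1* at 213, *Baat* at 168 and *Cyp7b1* at 115 CPM per kb. *Nr1h4* at 72.8, *Akr1d1* at 57.4, *Cyp7a1* at 45.2 and *Nr0b2* at 21.3 CPM per kb closed the order. The ranges of every pair of neighbours overlapped. Within livers, *Slc27a5* exceeded *Slc10a1* in 8 of 8 and *Cyp27a1* exceeded *Baat* in 8 of 8, whereas *Slc10a1* exceeded *Cyp8b1* in 5 of 8.

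The repressor and its targets were compared across livers in 3 relations. *Cyp7a1* and *Nr0b2* had a Pearson r of -0.49 (exact permutation p = 0.211, adjusted 0.633) and a Spearman rho of -0.50 (exact permutation p = 0.216, adjusted 0.649) over 8 livers. For *Cyp8b1* and *Nr0b2*, r was -0.15 (exact permutation p = 0.758, adjusted 0.831) and rho -0.17 (p = 0.703, adjusted 0.935). For *Abcb11*, the export pump of bile acids and another FXR target, r with *Nr0b2* was 0.09 (exact permutation p = 0.831, adjusted 0.831) and rho -0.05 (p = 0.935, adjusted 0.935). Without *Srsf10-kd* 1 and *Ctrl* 3, the livers farthest from the median of *Nr0b2*, r was -0.38, -0.25 and 0.32. None of the 3 pooled relations was detectable with 8 livers. Within groups of 4 livers, too few to test, r was -0.30 in *Ctrl* and -0.53 in *Srsf10-kd* for *Cyp7a1*, -0.61 and 0.91 for *Cyp8b1*, and 0.94 and 0.22 for *Abcb11*, so that the sign for *Cyp8b1* was opposite in the groups.

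The wider pathway was read from 4 lists of 57 other genes (synthesis, transport, regulators and detoxification), of which 54 were tested. The edgeR test called 1 of them, *Ppara*, against 0.0710% of all genes. The study had already reported lower *Ppara* with *Srsf10* knockdown, and the lists were written with earlier results known. This call therefore says nothing about bile acid genes as a set. At an unadjusted p under 0.05, 5 were higher and 14 lower, against 11.2% and 10.6% of all genes in those directions. The groups did not overlap for 2 higher and 9 lower genes, against 6.73% and 7.53% of all genes. The median log2 fold change was -0.09 over the 54, and by list it was -0.01 for synthesis (15 genes, 7 fitted higher and 8 lower), -0.21 for transport (19 genes, 7 and 12), -0.21 for regulators (16 genes, 4 and 12) and 0.20 for detoxification (4 genes, 2 and 2). DESeq2 called 6 of the 54, against 5.75% of all genes, and limma-voom 15, against 11.7% of all genes.

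**Figure D4:**
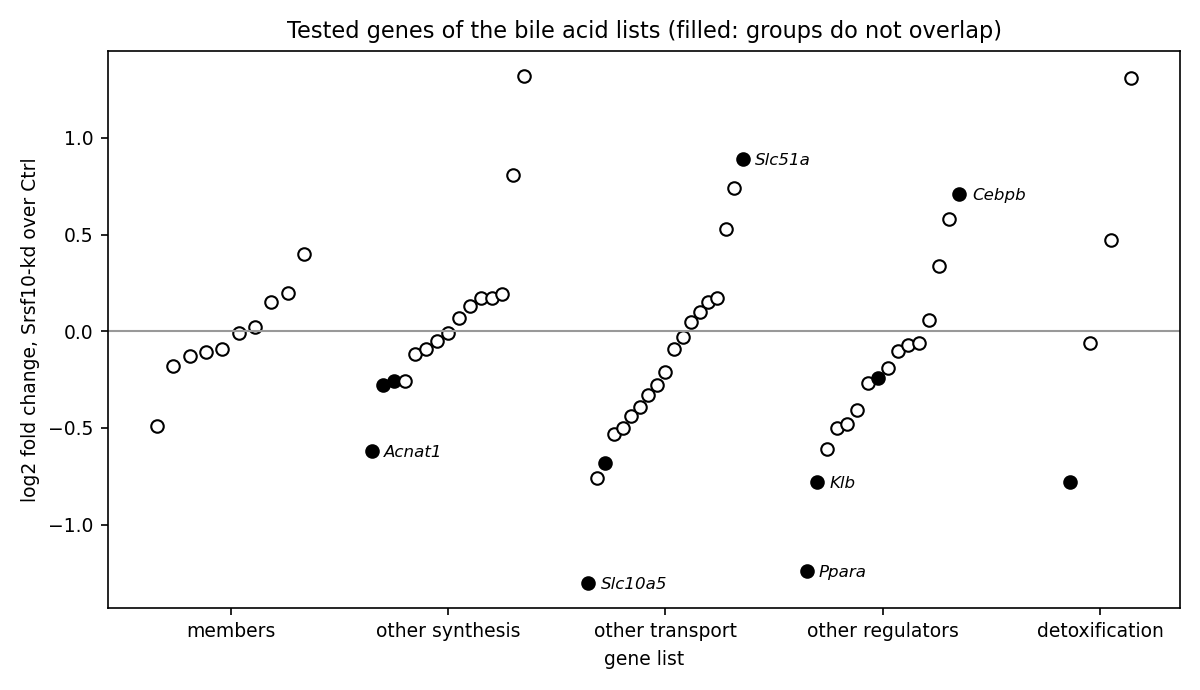
Log2 fold change of *Srsf10-kd* over *Ctrl* (vertical axis) for the tested genes of each list, sorted within the list; filled points are genes whose groups do not overlap, and the 6 genes named by rule carry their symbols. The members, at the left, lie between -0.49 and 0.40 with no filled point, while *Ppara* at -1.24 and *Slc10a5* at -1.30 are the lowest of the other lists.

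Among the regulators, *Ppara*, the nuclear receptor of fatty acid oxidation, was at 177, 208, 168 and 234 CPM in *Ctrl* and fell to 88.4, 84.6, 77.8 and 82.3 CPM in *Srsf10-kd* (log2 fold change -1.24, SE 0.13, adjusted p = 0.0166). The call was lost without *Ctrl* 2 or without *Srsf10-kd* 1, 2 or 4, with adjusted p-values of 0.0536 to 0.106, while the fold change stayed between -1.31 and -1.15. *Klb*, which encodes β-Klotho, was at 26.7, 30.3, 27.3 and 35.9 CPM against 19.9, 23.3, 9.55 and 17.1 CPM (-0.78, SE 0.24, adjusted p = 0.138). *Cebpb*, a transcription factor of the acute-phase response, was at 154, 123, 89.1 and 112 CPM against 183, 166, 246 and 184 CPM (0.71, SE 0.18, adjusted p = 0.119). The groups of both were apart in these livers, but edgeR did not call them, while DESeq2 did (adjusted p = 0.0422 and 0.0156). *Hnf4a*, chosen after its values were seen because its site stands in the *Cyp8b1* promoter, was at 597 to 919 CPM in *Ctrl* and 444 to 653 CPM in *Srsf10-kd* (-0.50, SE 0.17, adjusted p = 0.155; limma-voom 0.0274, DESeq2 0.0741). *Fgf15* had at most 2 counts in any liver, where a count of 0 allows up to 0.0597 CPM (counting error only), and *Gpbar1* at most 4, so neither was tested.

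Transport held the list's most negative change, in *Slc10a5*, a relative of *Slc10a1* whose substrate is not established. Its levels were 46.9, 46.6, 49.0 and 52.2 CPM in *Ctrl* and 22.6, 25.4, 9.03 and 22.3 CPM in *Srsf10-kd*. All 4 *Srsf10-kd* livers lay below all 4 *Ctrl* livers, with a log2 fold change of -1.30 (SE 0.26) and an adjusted p of 0.0978, outside the threshold; DESeq2 gave an adjusted p of 0.000679. Of its stretches of 75 bases, 5.04% are shared with *Gm38303*, whose exons it overlaps on the same strand, so its count is uncertain. The summed level of the 19 transport genes was 5105 to 5388 CPM in *Ctrl* and 4030 to 4661 CPM in *Srsf10-kd*, without overlap. Its largest term, *Slco1b2*, overlapped between the groups, at 1630 to 1750 CPM in *Ctrl* and 1575 to 2046 CPM in *Srsf10-kd* (0.05). Of the 19 genes, 7 were fitted higher and 12 lower, and edgeR called 0, so the sum does not describe each carrier. Of the pumps of the canalicular membrane, chosen after their values were seen, *Abcb11* was at 287 to 403 CPM against 190 to 368 CPM (-0.33, SE 0.20, adjusted p = 0.334), *Abcc2* at 403 to 685 CPM against 238 to 446 CPM (-0.76, SE 0.22, adjusted p = 0.133), and *Abcb4* at 583 to 892 CPM against 222 to 565 CPM (-0.68, SE 0.27, adjusted p = 0.195). For *Abcb11* the change was -0.19 without *Srsf10-kd* 3 and -0.51 without *Srsf10-kd* 2. None of the 3 was called by edgeR, and *Abcc2* was called by DESeq2 (adjusted p = 0.0333). Other carriers of that membrane in the list changed less in edgeR. *Abcg2* was at 0.10 (adjusted p = 0.618), *Abcg5* at -0.03 (adjusted p = 0.905) and *Abcg8* at -0.21 (adjusted p = 0.427).

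*Slc51a*, a subunit of the basolateral exporter, stayed under 1 CPM in every liver, with 12 to 39 counts. It was at 0.196 to 0.298 CPM in *Ctrl* and 0.311 to 0.68 CPM in *Srsf10-kd* (0.89, SE 0.31, adjusted p = 0.161; limma-voom 0.033, DESeq2 0.135). Without *Srsf10-kd* 1 the change was 0.59. Bile duct cells also express this gene, and 7 of 8 tested cholangiocyte markers were fitted higher (median 0.56), with a summed level of 43.8 to 51.3 CPM in *Ctrl* and 57.5 to 76.2 CPM in *Srsf10-kd*. *Cftr* and *Muc1* were below 1 CPM in all livers, and the part of these cells in the level of *Slc51a* was not tested.

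In synthesis, *Acnat1*, a peroxisomal acyltransferase related to *Baat*, was at 34.8, 38.8, 30.1 and 42.9 CPM in *Ctrl* and 25.5, 26.9, 25.7 and 17.3 CPM in *Srsf10-kd* (-0.62, SE 0.16, adjusted p = 0.119; DESeq2 0.0217). Of its 75-base stretches, 16.9% are shared with *Acnat2*, so reads may be split between them, and *Acnat2* was at -0.01 (adjusted p = 0.986). *Cyp2c70*, the enzyme that makes muricholic acids in mice, was named after its values were seen, as its SD within groups, 0.86, exceeded that of every member. The same held for *Cyp2b10* (2.24), *Cyp3a11* (0.97), *Ugt1a1* (0.87) and *Slc51b* (0.81) of the wider lists. *Cyp2c70* was at 48.6, 23.6, 17.8 and 21.1 CPM in *Ctrl* and at 37.3, 103, 111 and 26.6 CPM in *Srsf10-kd* (1.32, SE 0.48, adjusted p = 0.175). *Srsf10-kd* 2 and 3 alone stood above the rest, and limma-voom gave 0.56 (adjusted p = 0.378). Among the detoxification genes 0 of 4 had an unadjusted p under 0.05; *Ugt1a1*, also named after its values were seen, was at 217 to 279 CPM against 151, 208, 32.2 and 156 CPM (-0.78, SE 0.43, adjusted p = 0.292), and the change was -0.45 without *Srsf10-kd* 3. Its count is uncertain, since 57.7% of its 75-base stretches are shared with other *Ugt1a* genes that overlap it on the same strand.

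Other lists were read beside the members, and edgeR called no gene of them, against 0.0710% of all genes. Over all genes, 11.2% were higher and 10.6% lower at an unadjusted p under 0.05 in edgeR. DESeq2 called 5.75% of all genes and limma-voom 11.7%, and the counts of each list below stand beside these shares. Of 16 clock genes, 3 were fitted higher and 13 lower (median -0.21); *Clock* and *Cry2* were lower at an unadjusted p under 0.05, and DESeq2 called 1 and limma-voom 2. *Dbp*, an output gene of the clock, ran from 50.6 CPM in *Srsf10-kd* 1 to 167 CPM in *Srsf10-kd* 3. *Cyp7a1* and *Cyp8b1* are known to follow the time of day and feeding, the time of collection is not given in the sources used here, and the part of the clock in their spread was not tested. Pericentral genes, of the zone in which *Cyp7a1* is known to be expressed, had a median of -0.11 over 12 genes, with 3 lower at an unadjusted p under 0.05 and 1 called by each of the other tools. Their summed level was 13526 to 14884 CPM in *Ctrl* and 11917 to 13149 CPM in *Srsf10-kd*, without overlap. Most of that sum was *Cyp2e1*, at 10421 to 11798 CPM in *Ctrl* and 9233 to 10532 CPM in *Srsf10-kd*. The groups of *Cyp2e1* overlapped (-0.18, adjusted p = 0.405 in edgeR). Of the 12 genes, 5 were fitted higher and 7 lower, and the part of this zone in the level of *Cyp7a1* was not tested. Periportal genes had a median of -0.01 over 12, with 0 at an unadjusted p under 0.05 and 0 by the other tools (9156 to 16117 CPM and 8117 to 10251 CPM). Hepatocyte markers had a median of 0.16 over 7, with *Apob* lower at an unadjusted p under 0.05 and called by both other tools (78675 to 106529 CPM and 97353 to 112535 CPM).

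The summed levels of markers of other cells overlapped between groups, apart from the cholangiocyte markers given beside *Slc51a*. For those, *Krt19*, *Epcam*, *Cftr* and *Spp1* were higher at an unadjusted p under 0.05, against 11.2% of all genes. DESeq2 called 1 of them and limma-voom 2, against 5.75% and 11.7% of all genes. Macrophage markers summed to 173 to 259 CPM in *Ctrl* and 141 to 248 CPM in *Srsf10-kd* (median change -0.04; 0 at an unadjusted p under 0.05 and 0 by the other tools). Stellate cell markers summed to 206 to 241 CPM and 184 to 321 CPM (0.04; 0 at an unadjusted p under 0.05, 0 by DESeq2 and 1 by limma-voom). Endothelial markers summed to 240 to 269 CPM and 228 to 273 CPM (0.02; 2 higher and 1 lower at an unadjusted p under 0.05, 1 by DESeq2 and 3 by limma-voom). Lymphocyte markers summed to 9.9 to 13.9 CPM and 8.36 to 11.4 CPM (-0.10; 1 higher at an unadjusted p under 0.05 and 0 by the other tools), and *Cd3e*, *Cd3g*, *Trac*, *Cd79a* and *Nkg7* were below 1 CPM in every liver.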

How the data were processed

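The authors isolated liver RNA, prepared strand-specific libraries from poly(A) RNA for paired-end sequencing and aligned the reads to GRCm38 with STAR 2.7.7a. The deposited values are raw read counts per gene, without normalization; which annotation release, strand column or read filter lies behind them is not given in the sources used here. Each of the 8 columns was matched to 1 liver by its label, and no pair was a duplicate (chi-square over degrees of freedom at least 46.5 in the 28 pairs).

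Counts were fitted in R 4.3.3 with edgeR 4.0.16 (TMM, filterByExpr, quasi-likelihood test on condition alone, two-sided, Benjamini-Hochberg adjusted p under 0.05). Intervals (95%) come from this fit. A prior count of 2 was added for log2 CPM. For single genes, an exact permutation test ran over the 70 assignments of livers to groups, with a smallest p of 0.0286. Alternatives were DESeq2 1.42.0, the tool of the study, limma-voom with quality weights (limma 3.58.1), DESeq2 size factors, library size only, no filter, a minimum of 10 counts in all livers, each library's lowess trend on transcript length removed (span 0.5), a block for the replicate number, and each liver left out.

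Positions and symbols are from GENCODE M21, which holds 45143 of the identifiers; 1 of 154 list symbols was not matched. No member shares stretches of 75 bases with other genes or overlaps their exons. The members and all gene lists were chosen with earlier results of these data known; lists were written from general knowledge and have no test of their own. Named from the wider lists were genes called by edgeR, plus up to 4 per direction with the smallest p and groups that do not overlap. On simulated counts of 15293 genes with 200 changed by 1.5 on the log2 scale, edgeR recovered 96.5% with 13 false calls, DESeq2 98% with 41, and limma-voom 95.5% with 13. Those counts were drawn independently for each gene and liver. The fitted changes of the members were smaller, from -0.49 to 0.40, so these shares do not say how often changes of that size would be found.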

Additional observations from a re-analysis of the deposited data

Results flagged for a closer look

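*Acnat1* was flagged for 1 liver far from its group: *Srsf10-kd* 4 was at 17.3 CPM, against 25.5 to 26.9 CPM in the other livers labelled *Srsf10-kd*, and the gap took 0.851 of the range of the group, past Dixon's 95% limit for 4 samples. *Ugt1a1* was flagged in the same way in *Ctrl*, where *Ctrl* 2 was at 279 CPM against 217 to 224 CPM in the others (0.891 of the range). With 46 groups of 4 livers examined, about 2.3 such flags would be reached by chance, and no member was flagged.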

How the results depend on the processing

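In all 16 alternatives 0 of 10 members were called, and in 160 combinations of member and alternative the smallest adjusted p was 0.167. The direction was kept in 147 and turned in 13: with limma-voom *Cyp7b1* was 0.10, *Akr1d1* -0.11 (0.40 in edgeR) and *Slc27a5* -0.05; with the length trend removed *Slc27a5* was -0.04 and *Nr0b2* -0.04. Leaving out 1 liver gave *Cyp7b1* -0.35 to 0.14 (above 0 without *Ctrl* 4 or *Srsf10-kd* 2, at 0.04), *Cyp27a1* -0.10 to 0.03 (0.005, 0.02 and 0.002 without *Ctrl* 1, *Srsf10-kd* 1 and *Srsf10-kd* 4) and *Slc27a5* -0.06 to 0.08 (-0.004 without *Ctrl* 4). The correlation of *Cyp8b1* with *Nr0b2* turned to 0.44 with the length trend removed (adjusted p 0.433). *Nr1h4* ran from -0.23 with the length trend removed (adjusted p 0.275) to -0.08 without *Ctrl* 3. At an unadjusted p under 0.05 in edgeR, 1 member was found with the length trend removed and 1 without *Srsf10-kd* 2. Over all genes these settings gave 2307 and 3656 such genes, against 3382 in the fit of all livers without that step. The causes were not tested.

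Over all genes 11 were called, against 890 with DESeq2, 1814 with limma-voom, 46 without a filter on low counts, and 0 to 544 with 1 liver left out (0 without *Ctrl* 2 or *Srsf10-kd* 1, 2 or 4, where edgeR gave 2154 to 3656 genes at an unadjusted p under 0.05, 4 without *Ctrl* 1, 5 without *Ctrl* 4, 64 without *Srsf10-kd* 3, 544 without *Ctrl* 3). Of the other bile acid genes 1 was called, against 6 with DESeq2, 15 with limma-voom, and 0 to 4 with 1 liver left out (0 without *Ctrl* 2 or *Srsf10-kd* 1, 2 or 4, where the adjusted p of *Ppara* was 0.0536 to 0.106; 2 without *Srsf10-kd* 3; 4 without *Ctrl* 3). *Slc10a5* passed without *Srsf10-kd* 3 (-1.05, adjusted p 0.0172), and *Abcc2* without *Ctrl* 3 (-0.90, adjusted p 0.048). With the replicate number as a block, 59 genes, 0 members and 1 other bile acid gene were called. With the length trend removed, the calls were 8 genes, 0 members and 1 other bile acid gene. Same-numbered livers deviated with correlations of -0.176, 0.213, 0.265 and 0.217. Of the 4 *Ctrl* livers, 2 correlated best with their own number, which was not tested against chance. No pairing of livers is given in the sources used here, so the numbers were not taken as a pairing. The members had at least 958 counts in every liver.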
